A study of Homo sapiens with 12 samples.

Results

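The MiT/TFE transcription factors and the genes of the folliculin and Rag GTPase arm that feed back on them were followed through polyA RNA-seq of HEK293T, an established line from human embryonic kidney. The 9 genes are the factors TFEB, TFE3, MITF and TFEC, the Rag GTPase gene RRAGD, the folliculin gene FLCN with its partner genes FNIP1 and FNIP2, and the target gene GPNMB. They were found by symbol among 41878 gene rows, with 1 row for each symbol. Of the 9 genes, 8 passed the filter on low counts and were tested, and TFEC had no count in any library.

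MiT/TFE factors are basic helix-loop-helix leucine zipper proteins that bind E-box elements in the promoters of lysosomal and autophagy genes. When nutrients are plentiful, mTORC1 at the lysosome phosphorylates TFEB and TFE3 and keeps them in the cytoplasm, and this needs RagC or RagD loaded with GDP by folliculin and its FNIP partner. When the factors enter the nucleus they can raise transcription of FLCN, the FNIP genes and RRAGD, which closes a feedback loop. GPNMB, a transmembrane glycoprotein of melanosomes and lysosomes, is a much used reporter of their activity in cells that lack folliculin. Control of the factors is largely through their location, which RNA counts do not measure.

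The 4 groups had 3 libraries each. Every culture received 1 µg of plasmid by transient transfection with Effectene, either the control vector or TRPML3, the cation channel of endosomes and lysosomes encoded by MCOLN3, and was then left in 10% serum (fed) or kept in 0% serum for 4 h (starved). The groups were thus vector fed, vector starved, TRPML3 fed and TRPML3 starved. The protocol calls the replicates biological, but it does not say whether they were transfected separately, and p-values measure the spread between these libraries. The share of cells that took up plasmid is not given, and in such bulk RNA a change in few cells and a smaller change in all cells cannot be told apart.

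Library totals ran from 33101540 to 43700547 counts, and levels are given as CPM, counts scaled to a common depth, on library sizes adjusted by TMM (a trimmed mean of log ratios). MCOLN3, the check of the plasmid labels, had 9.31 to 18.4 CPM in the 6 vector libraries. In the 6 TRPML3 libraries it had 4929 to 58223 CPM. All 7 markers of HEK293 cells were at a mean of 1 CPM or more, with a summed level of 487 to 959 CPM. Of 7 macrophage and osteoclast markers, cells in which TFEC and MITF are prominent, 1 reached that mean (ITGAM), and the summed level was 0.0876 to 10.3 CPM. Of 5 melanocyte markers 3 did (PMEL, DCT and MLANA), with a summed level of 3.33 to 7.12 CPM, and TYR had no count. In each group replicate 3 had the highest share of counts from the mitochondrial genome and replicate 2 the lowest, at 4.83 to 5.70% and 1.05 to 2.52%, with 2.81 to 4.40% in replicate 1. Values without replicate 3 for average starvation, and without replicate 2 for some comparisons, stand beside the results. Comparisons given without such a value may move too. What part the mitochondrial share had in these values was not tested.

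None of the 8 genes passed in any comparison. The test was edgeR's quasi-likelihood test over 18030 genes in 12 libraries, with Benjamini-Hochberg adjustment at 0.05. For TRPML3 against vector in fed cells 0 of 8 were called, where 0.0111% of all genes were, and in starved cells 0 of 8, where 0.00555% were. For starved against fed, 0 of 8 were called in vector cells (0.00555% of all genes) and 0 of 8 in TRPML3 cells (0% of all genes). The interaction, the difference in starvation response between the plasmids, also gave 0 of 8 (0% of all genes). Averages over the other factor gave 0 of 8 for TRPML3 (0.0111% of all genes) and 0 of 8 for starvation (0%). At an unadjusted p under 0.05 a single gene was counted, FNIP1 for TRPML3 in fed cells. In the 5 contrasts in this order and the averages for TRPML3 and starvation, 2.21, 2.2, 4.44, 5.71, 2.07, 2.62 and 9.45% of all genes were. The DESeq2 Wald test also called 0 of 8 in each comparison. The spread between libraries set wide limits, and the values below show how wide for each gene.

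**Figure D1:**
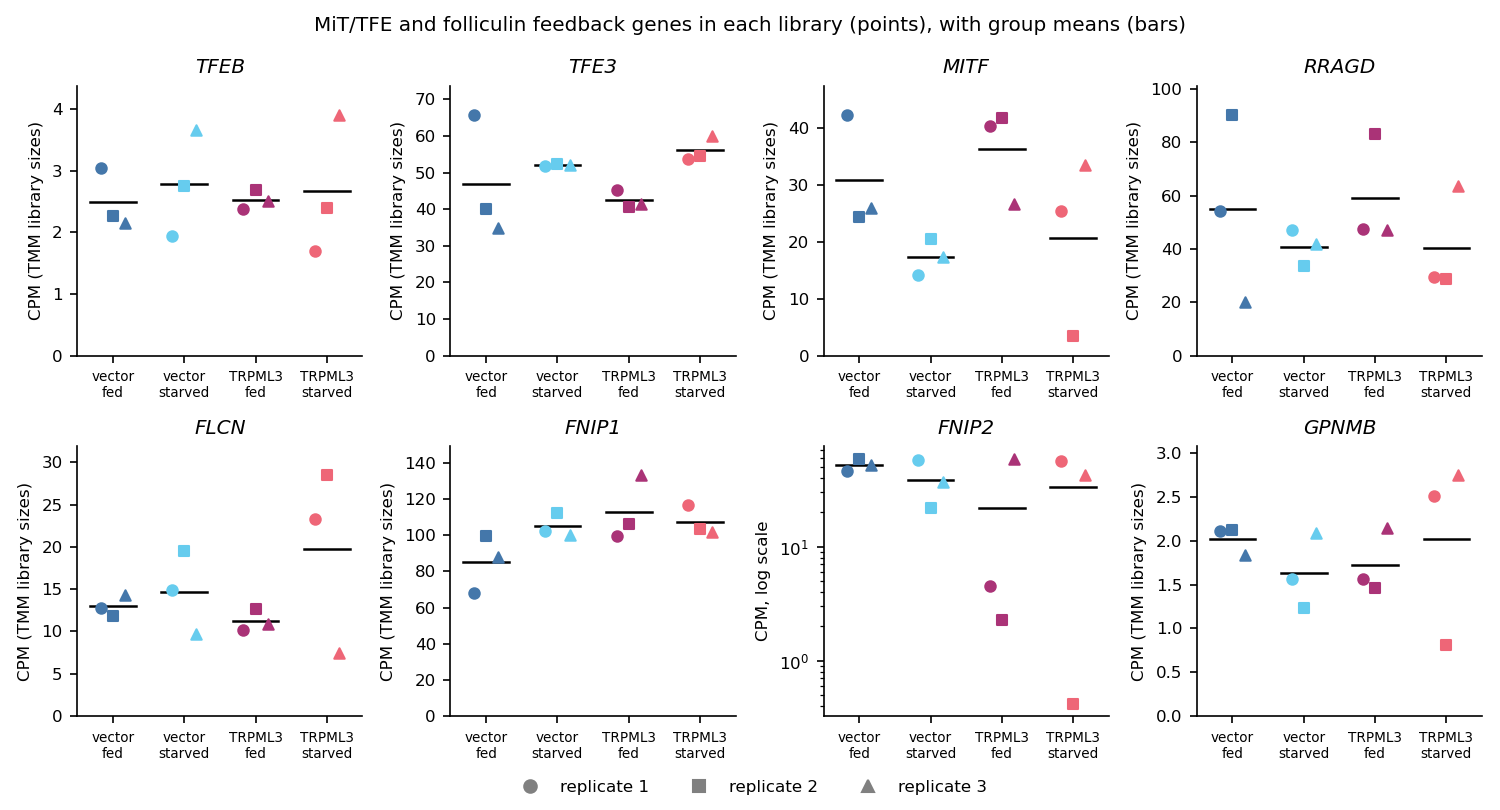
Level of each of the 8 detected genes (vertical axis, CPM on TMM library sizes, logarithmic for FNIP2 only) in the 12 libraries, by group. Points are libraries, with the replicate number as marker shape, and bars are means of 3. FLCN was highest in TRPML3 starved replicates 1 and 2, at 23.2 and 28.5 CPM, and FNIP2 fell to 0.419 CPM in TRPML3 starved replicate 2.

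TFE3 (ENSG00000068323, chromosome X, 49028726 to 49043486, minus strand of GRCh38, as are all positions here) was the most abundant factor of the family. It had 65.8, 39.9 and 35.0 CPM in vector fed replicates 1, 2 and 3, and 51.7, 52.3 and 52.0 CPM in the vector starved ones. With TRPML3 it had 45.3, 40.7 and 41.5 CPM when fed and 53.8, 54.6 and 60.1 CPM when starved. The vector groups overlapped because fed replicate 1 was the highest library of all 12, whereas all TRPML3 starved libraries lay above all TRPML3 fed ones, as for 5.56% of all genes. All TRPML3 starved libraries also lay above all vector starved ones, by a narrow margin, as for 3.02% of all genes. Starvation gave a log2 fold change of 0.40 ± 0.23 (SE) in TRPML3 cells (95% interval -0.11 to 0.91, edgeR adjusted p = 0.89) and of 0.15 ± 0.23 in vector cells (adjusted p = 1). Averaged over both plasmids it was 0.28 ± 0.16 (interval -0.09 to 0.64, adjusted p = 0.656), and 0.17 ± 0.18 without replicate 3 (adjusted p = 0.643). For TRPML3 against vector the values were -0.14 ± 0.23 in fed and 0.11 ± 0.23 in starved cells.

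MITF (ENSG00000187098, chromosome 3, 69739435 to 69968337, plus strand), the factor best known from melanocytes and osteoclasts, had the larger spread. Vector fed replicates 1, 2 and 3 had 42.4, 24.5 and 26.0 CPM and vector starved ones 14.3, 20.5 and 17.3 CPM. TRPML3 fed replicates had 40.3, 41.9 and 26.6 CPM, and starved ones 25.4, 3.38 and 33.5 CPM. In vector cells all starved libraries lay below all fed ones, as for 4.57% of all genes. In TRPML3 cells the groups overlapped, because starved replicate 3 lay above fed replicate 3, and starved replicate 2 was far below every other library. The log2 fold change for starvation was -0.84 ± 0.61 in vector cells (interval -2.19 to 0.52, edgeR adjusted p = 1) and -0.81 ± 0.61 in TRPML3 cells (interval -2.16 to 0.55, adjusted p = 0.935). Averaged over plasmids it was -0.82 ± 0.43, a fold of 0.566 with an interval of 0.291 to 1.10 (adjusted p = 0.606). Without replicate 3 this average was -1.22 ± 0.60 (adjusted p = 0.294), and without TRPML3 starved replicate 2 it was -0.57. For TRPML3 against vector MITF had 0.23 ± 0.61 in fed and 0.26 ± 0.61 in starved cells. Without replicate 2 the starvation value in TRPML3 cells was -0.20, and TRPML3 against vector in starved cells gave 0.89.

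TFEB (ENSG00000112561, chromosome 6, 41683978 to 41736259, minus strand), the factor most studied in starvation-induced autophagy, was low. Its counts ran from 58 to 163 per library. Vector fed replicates 1, 2 and 3 had 3.05, 2.26 and 2.15 CPM, and vector starved ones 1.93, 2.75 and 3.67 CPM. TRPML3 fed replicates had 2.38, 2.68 and 2.51 CPM and starved ones 1.69, 2.40 and 3.91 CPM. All groups overlapped, and the 2 highest libraries were replicate 3 of both starved groups. Averaged over plasmids, starvation gave a log2 fold change of 0.12 ± 0.25 (interval -0.43 to 0.68, edgeR adjusted p = 0.935), and -0.23 without replicate 3 in all groups. Averaged over serum states, TRPML3 gave -0.02 ± 0.25 (interval -0.58 to 0.53).

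TFEC (ENSG00000105967, chromosome 7, 115935148 to 116159896, minus strand), the family member of macrophages, had 0 counts in all 12 libraries. A count of 0 allows up to 3 counts in a library, or at most 0.0978 CPM, for counting error only.

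Levels of different genes were compared only per kb of exon (GENCODE release 29), over the union of all annotated exons of a gene. Shares and ratios between genes thus depend on that annotation, and lengths of the expressed transcripts were not measured. Over the 12 libraries TFE3 had 11.5 ± 2.11 CPM per kb (SD, n = 12), MITF 3.67 ± 1.65 and TFEB 0.463 ± 0.116. The range of TFE3 lay above those of MITF and TFEB, while the lowest MITF library (0.471) lay within the range of TFEB (0.300 to 0.692). As a share of the summed family level, TFE3 took 69.5 ± 2.09% (SD, n = 3) in vector fed, 80.8 ± 2.75% in vector starved, 64.6 ± 5.02% in TRPML3 fed and 80.8 ± 11.1% in TRPML3 starved libraries. MITF took 27.6 ± 1.94%, 16.0 ± 2.27%, 32.5 ± 5.18% and 16.4 ± 11.2% in the same order. The lowest TFE3 share in a starved library was 72.4% and the highest in a fed library 71.0%, so the 6 starved and the 6 fed libraries did not overlap, replicate 3 included. The MITF to TFE3 ratio per kb did not overlap either, with 0.365 the lowest fed and 0.332 the highest starved value. Over all 95613706 pairs of 13829 genes with a mean of at least 1 CPM and a count in every library, 0.999% had a ratio that did not overlap between fed and starved libraries. The ratio was singled out after its values were seen, and it was not tested. TFEB took 1.83 to 4.28% in all libraries.

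**Figure D2:**
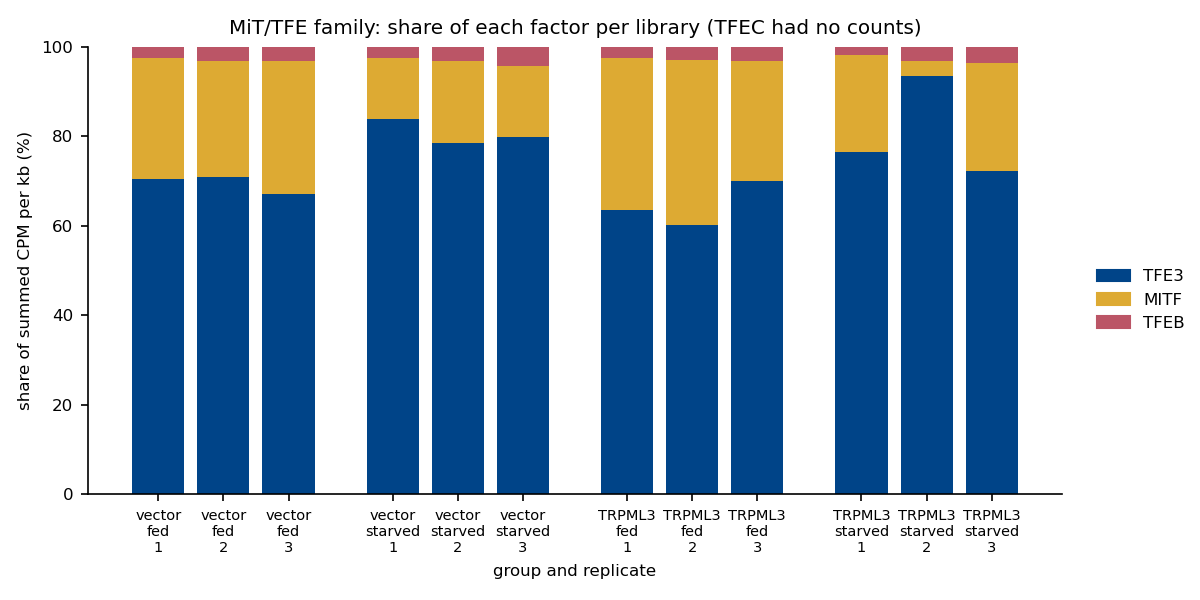
Share of the summed MiT/TFE level (vertical axis, percent of summed CPM per kb of exon) taken by TFE3, MITF and TFEB in each of the 12 libraries (horizontal axis, group and replicate). TFE3 took 60.1 to 71.0% in fed and 72.4 to 93.4% in starved libraries, and MITF made up most of the rest.

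RRAGD (ENSG00000025039, chromosome 6, 89364636 to 89412270, minus strand) encodes RagD, which pairs with RagA or RagB to bring mTORC1 to the lysosome. Vector fed replicates 1, 2 and 3 had 54.4, 90.2 and 20.1 CPM and vector starved ones 47.1, 33.5 and 42.0 CPM. TRPML3 fed replicates had 47.4, 82.9 and 47.1 CPM and starved ones 29.3, 28.5 and 63.6 CPM. Replicate 2 was the highest fed library with either plasmid, and vector fed replicate 3 was the lowest of all 12. Over all libraries, starvation averaged over plasmids gave a log2 fold change of -0.49 ± 0.36 (interval -1.27 to 0.30, edgeR adjusted p = 0.736). Without replicate 3 it was -0.99 ± 0.26 (fold 0.502, interval on the log2 scale -1.64 to -0.35, unadjusted p = 0.0093, adjusted p = 0.0918), which did not pass. Without replicate 2 it was 0.12, so the direction turned. In replicates 1 and 2 all 4 starved libraries lay below all 4 fed ones, although by only 47.1 against 47.4 CPM at the closest, as for 10.1% of all genes. In replicate 3 the order was the opposite with both plasmids, and the share of all genes that turned in this way was not counted. TRPML3 against vector gave 0.11 ± 0.50 in fed and -0.01 ± 0.50 in starved cells. Its close relative RRAGC was more abundant, at 25.3 ± 3.98 CPM per kb (SD, n = 12) against 9.63 ± 4.22 for RRAGD, and the RRAGD to RRAGC ratio per kb ran from 0.167 in TRPML3 starved replicate 2 to 0.775 in vector fed replicate 2.

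FLCN (ENSG00000154803, chromosome 17, 17212212 to 17237188, minus strand) encodes folliculin, the GTPase-activating protein for RagC and RagD. It had 12.8, 11.8 and 14.3 CPM in vector fed replicates 1, 2 and 3 and 14.9, 19.5 and 9.70 CPM in vector starved ones. With TRPML3 it had 10.2, 12.6 and 10.9 CPM when fed and 23.2, 28.5 and 7.47 CPM when starved. The 6 fed libraries lay close together, while the starved ones held both the 4 highest and the 2 lowest of the 12. Starvation gave a log2 fold change of 0.81 ± 0.44 in TRPML3 cells (interval -0.15 to 1.78, edgeR adjusted p = 0.885), 0.18 ± 0.43 in vector cells (interval -0.78 to 1.14, adjusted p = 1) and 0.50 ± 0.31 on average (adjusted p = 0.675). The difference between the plasmids, the interaction, was 0.64 ± 0.61 (interval -0.72 to 1.99, adjusted p = 1). TRPML3 against vector gave -0.21 ± 0.43 in fed and 0.42 ± 0.43 in starved cells (interval -0.53 to 1.38, adjusted p = 1).

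Without replicate 3, the average log2 fold change of FLCN for starvation was 0.84 ± 0.18, a fold of 1.79 (interval on the log2 scale 0.40 to 1.29, unadjusted p = 0.00345, adjusted p = 0.0588). It did not pass either, in a fit of 8 libraries that called 4.49% of 18052 genes. All 4 starved libraries of replicates 1 and 2 lay above all 4 fed ones, as for 10.1% of all genes. In replicate 3 both starved libraries lay below both fed ones. With replicate 3 included, the average starvation comparison called 0% of all genes. How many of all genes turned in replicate 3 was not counted, so this may not be particular to FLCN. Without replicate 2 the FLCN average over plasmids was 0.20, and the value in vector cells was -0.14. In the starved TRPML3 libraries MCOLN3 and FLCN had the same order, with 41362, 58223 and 16896 CPM of MCOLN3 beside 23.2, 28.5 and 7.47 CPM of FLCN in replicates 1, 2 and 3. In the fed TRPML3 libraries they had not, with 6211, 4929 and 39972 CPM of MCOLN3 beside 10.2, 12.6 and 10.9 CPM of FLCN. The vector starved replicates, with 9.31, 9.63 and 14.4 CPM of MCOLN3, had the same FLCN order by replicate. From fed to starved TRPML3 libraries, MCOLN3 was higher in replicates 1 and 2 and lower in replicate 3, as FLCN was. Starvation in TRPML3 cells and the interaction thus also compared unlike MCOLN3 levels. A relation of FLCN to the MCOLN3 level was not tested. The annotated gene overlaps MPRIP (43.3 CPM on average) on the opposite strand, and the use of strand in counting is not given in the sources used here, so some FLCN counts could belong to MPRIP.

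**Figure D3:**
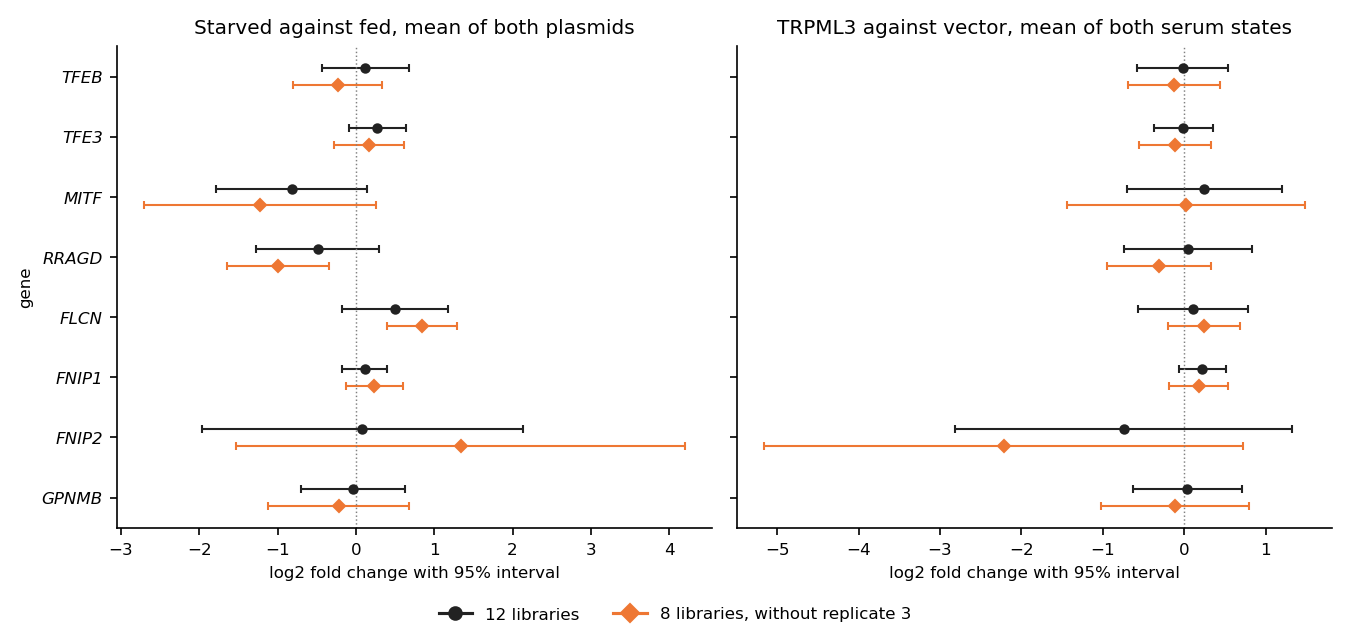
Average log2 fold change (horizontal axis, with 95% intervals) of each detected gene for starvation (left) and for TRPML3 (right), in all 12 libraries and in the 8 without replicate 3. For starvation, FLCN moved from 0.50 to 0.84 and RRAGD from -0.49 to -0.99 when replicate 3 was left out. For TRPML3 all intervals held 0.

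FNIP1 and FNIP2 encode folliculin-interacting proteins, which act in place of each other in the folliculin complex. FNIP1 (ENSG00000217128, chromosome 5, 131641714 to 131797063, minus strand) was the steadier of the pair. It had 68.1, 99.5 and 87.8 CPM in vector fed replicates 1, 2 and 3 and 99.5, 106 and 133 CPM in TRPML3 fed ones. Vector starved replicates had 102, 112 and 100.3 CPM and TRPML3 starved ones 117, 104 and 102 CPM. The vector fed libraries were the lowest of the 12, and vector fed replicate 1 lay apart from the rest. For TRPML3 in fed cells FNIP1 was higher without overlap (99.5 CPM in each group at the closest, on unrounded values), as 3.22% of all genes were. The log2 fold change was 0.41 ± 0.18 (interval 0.00 to 0.81, unadjusted p = 0.0483, edgeR adjusted p = 1), and 0.27 without vector fed replicate 1. In vector cells FNIP1 was also higher without overlap when starved, as 5.36% of all genes were, with a log2 fold change of 0.30 ± 0.18 (adjusted p = 1), and 0.16 without vector fed replicate 1. Both comparisons use the same 3 vector fed libraries. Where those were not used, FNIP1 had a log2 fold change of 0.03 ± 0.18 with TRPML3 among starved libraries. With starvation among TRPML3 libraries it had -0.07 ± 0.18. Averaged over plasmids, starvation gave FNIP1 0.11 ± 0.13, and 0.24 ± 0.15 without replicate 3 (adjusted p = 0.399).

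FNIP2 (ENSG00000052795, chromosome 4, 158769138 to 158908049, plus strand) fell into separate levels within groups. Vector fed replicates 1, 2 and 3 had 45.9, 59.4 and 52.3 CPM and vector starved ones 57.7, 22.0 and 36.9 CPM. TRPML3 fed replicates had 4.49, 2.29 and 58.8 CPM and TRPML3 starved ones 56.3, 0.419 and 42.8 CPM. The 3 lowest libraries were all TRPML3 libraries, of both serum states, and the other 3 TRPML3 libraries lay within the range of the vector ones. FNIP2 stood 10.2-fold below its median in the other 11 libraries in TRPML3 fed replicate 1 and 109-fold below it in TRPML3 starved replicate 2, with TRPML3 fed replicate 2 in between. These levels rest on 187, 14 and 88 counts. Of 10624 genes with a median of at least 5 CPM, 7.54% were 10-fold or more below their median in at least 1 library, and each library held 83 to 156 of them, with the most in TRPML3 starved replicate 2. As low in 3 or more libraries, as FNIP2 was, were 132 genes (1.24%). This count was chosen after the values of FNIP2 were seen. The log2 fold change for TRPML3 was -1.27 ± 1.34 in fed cells (interval -4.22 to 1.69, edgeR adjusted p = 1) and -0.23 ± 1.32 in starved cells (interval -3.14 to 2.68, adjusted p = 1). Without TRPML3 fed replicate 3 the value in fed cells was -3.95, and without TRPML3 starved replicate 2 the value in starved cells was 0.35. For starvation averaged over plasmids FNIP2 had 0.08 ± 0.93, and 1.34 ± 1.17 without replicate 3 (interval -1.53 to 4.20, adjusted p = 0.553). For TRPML3 averaged over serum states it had -0.75 ± 0.93, and -2.22 ± 1.20 without replicate 3 (interval -5.16 to 0.73, adjusted p = 1). Without replicate 2 that average for TRPML3 was -0.29. Per kb, FNIP2 was below FNIP1 in every library, at a ratio from 0.00296 to 0.492.

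GPNMB (ENSG00000136235, chromosome 7, 23235967 to 23275108, plus strand) was low, with 27 to 95 counts per library. Vector fed replicates 1, 2 and 3 had 2.11, 2.12 and 1.84 CPM and vector starved ones 1.57, 1.23 and 2.09 CPM. TRPML3 fed replicates had 1.56, 1.46 and 2.15 CPM and starved ones 2.51, 0.809 and 2.75 CPM. All groups overlapped, and the lowest library was again TRPML3 starved replicate 2. The average log2 fold change was -0.04 ± 0.30 for starvation (interval -0.71 to 0.63, edgeR adjusted p = 0.987) and 0.04 ± 0.30 for TRPML3 (interval -0.63 to 0.70, adjusted p = 1). Without replicate 3 they were -0.22 ± 0.37 and -0.11 ± 0.37. Without replicate 2 the value for starvation was 0.20, so its sign depended on the replicates used.

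The promoters of FNIP1 and GPNMB are shown because they hold an E-box or an M-box core, as defined below. The FLCN promoter and the first FNIP2 window stand beside them as the other parts of the folliculin complex. The windows are from RefSeq on GRCh38.p14 and run from 250 bases before to 50 after an annotated start, 5′ to 3′ on the strand of the gene. Of the 9 genes, 8 had a window, with 14 windows in all, and RRAGD had none. Both strands were searched for the E-box CACGTG, its extended form TCACGTGA, as in the CLEAR element of lysosomal genes, and the M-box core TCATGTG of MITF targets. The extended form holds the E-box, and no M-box match overlapped an E-box match. Of 35116 windows of this length, 7.26%, 0.98% and 2.92% held these 3 motifs. Matches are in capitals.
FNIP1, chr5:131796968-131797267, minus strand: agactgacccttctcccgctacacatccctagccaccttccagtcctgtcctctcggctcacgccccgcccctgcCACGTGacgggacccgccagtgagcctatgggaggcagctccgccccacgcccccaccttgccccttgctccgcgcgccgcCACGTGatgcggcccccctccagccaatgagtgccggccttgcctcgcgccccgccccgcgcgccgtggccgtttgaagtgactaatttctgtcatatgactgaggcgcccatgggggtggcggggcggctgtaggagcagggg
GPNMB, chr7:23246525-23246824, plus strand: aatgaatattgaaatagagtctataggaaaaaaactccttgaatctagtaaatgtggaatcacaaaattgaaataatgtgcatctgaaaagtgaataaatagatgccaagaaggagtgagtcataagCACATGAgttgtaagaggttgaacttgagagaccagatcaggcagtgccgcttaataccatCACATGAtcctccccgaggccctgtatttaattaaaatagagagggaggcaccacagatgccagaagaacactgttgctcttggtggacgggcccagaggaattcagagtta
FLCN, chr17:17237119-17237418, minus strand: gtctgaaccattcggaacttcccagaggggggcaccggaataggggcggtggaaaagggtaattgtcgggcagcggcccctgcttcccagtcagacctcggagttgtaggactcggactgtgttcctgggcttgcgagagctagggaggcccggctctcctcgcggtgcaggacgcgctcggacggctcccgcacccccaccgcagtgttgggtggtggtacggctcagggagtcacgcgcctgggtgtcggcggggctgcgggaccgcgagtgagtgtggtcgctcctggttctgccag
FNIP2, chr4:158768776-158769075, plus strand: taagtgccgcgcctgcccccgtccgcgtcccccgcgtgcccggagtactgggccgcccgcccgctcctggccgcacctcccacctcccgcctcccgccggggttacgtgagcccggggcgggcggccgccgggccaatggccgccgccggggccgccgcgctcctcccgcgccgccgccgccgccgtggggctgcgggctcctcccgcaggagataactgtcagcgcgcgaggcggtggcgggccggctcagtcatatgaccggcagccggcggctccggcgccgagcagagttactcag
The FNIP1 window held the E-box at 2 places, with first bases 175 and 94 before the start, at neither place in the extended form. GPNMB held the M-box core at 2 places, 123 and 62 before the start, both read on the opposite strand. The FLCN window and the first of 2 FNIP2 windows held none of these letters. The second FNIP2 window, which is not shown, held the M-box core once. No window of TFEB, TFE3, MITF or TFEC held any of them. These are matches of letters, with no measure of binding in these data.

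Of the 8 detected genes FNIP1 varied least, with a coefficient of variation of 15.2% over the 12 libraries, followed by TFE3 with 18.3%. It was 25.2% for TFEB, 29.7% for GPNMB, 41.9% for FLCN, 43.8% for RRAGD, 44.9% for MITF and 63.5% for FNIP2. FLCN ran against several of the other genes from library to library. Its Pearson r on log2 CPM over the 12 libraries, given as a description, was -0.64 with MITF, -0.62 with GPNMB, -0.61 with TFEB and -0.58 with RRAGD (Spearman rho -0.44, -0.45, -0.54 and -0.57). Within groups, on deviations from group means, r was -0.56, -0.70, -0.69 and -0.51. Without the 2 libraries whose FLCN level was farthest from the median, it was -0.33, -0.78, -0.57 and -0.40, so for MITF and RRAGD much of it rests on those libraries. With TFE3 and FNIP1 r was 0.11 and 0.13. In all, 28 pairs of genes were computed. The highest r of all pairs was that of FNIP2 with GPNMB, but FNIP2 levels fall into separate clusters, so no pooled r is given for its pairs. Without the 2 libraries farthest from the median of FNIP2 its r with GPNMB was 0.49, and without those farthest in FLCN its r with FLCN was 0.0058. For MITF with GPNMB r was 0.66 (rho 0.30, within groups 0.78), and -0.04 without the 2 libraries farthest in MITF, so it rests on those. The libraries share the plasmid and serum groups and the replicate numbers, and counts of GPNMB and TFEB were low.

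**Figure D4:**
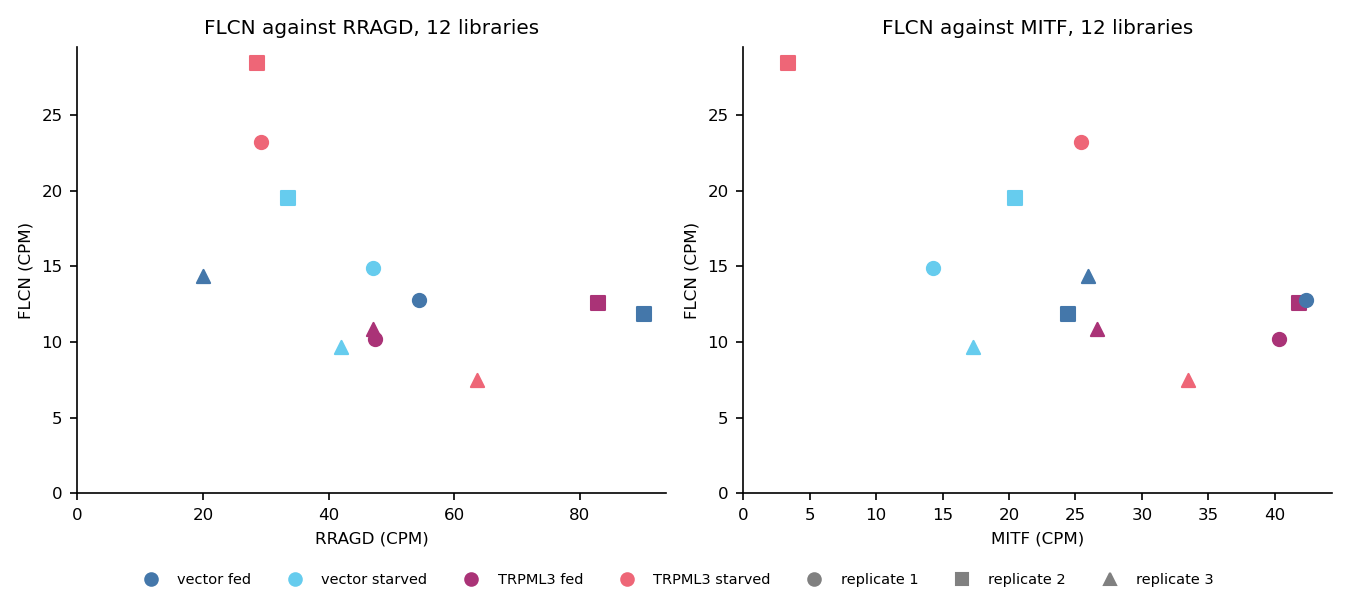
FLCN level (vertical axis, CPM) against RRAGD (left) and MITF (right) in the 12 libraries, coloured by group, with the replicate number as marker shape. The starved libraries of replicates 1 and 2 lie at high FLCN (14.9 to 28.5 CPM) and RRAGD of 28.5 to 47.1 CPM, while starved replicate 3 lies at the lowest FLCN of both plasmids.

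Among 14131 genes with a mean of at least 1 CPM, those most like each gene by Pearson r of log2 CPM over 12 libraries were named as a description. For RRAGD NUAK2 was named (r = 0.96), and for FLCN CSK (0.94) and CEBPG (0.93). For MITF they were SHROOM3 (0.94) and ABCC4 (0.93), for TFE3 RPP21 (0.93) and UHRF2 (0.89), and for TFEB NUDT7 and GOLGA6D (both 0.91). For FNIP1 they were DGKD (0.89) and ZBTB40 (0.88), and for GPNMB MYNN and BRD3 (both 0.88). For FNIP2 they were COPG2 and TPTEP2-CSNK1E, with no pooled r given because of its separate clusters. Whether the r of MITF and the other genes rest on few libraries was not tested. None of the 8 genes was among another's closest pair.

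Around these genes, 3 lists of the pathway were followed: 22 genes of the Rag and mTORC1 machinery, 16 genes of TFEB phosphorylation, calcium release and export, and 29 target genes of MiT/TFE factors. All 67 genes were tested in the 12 libraries, and 0 of them passed in any comparison. For starvation averaged over plasmids, 16 of 22 Rag and mTORC1 genes were above 0, and 9136 of all 18030 genes were. The median log2 fold change of the list was 0.19, against 0.01 over all genes. For the 16 genes of phosphorylation and export the median was 0.02 with 9 above 0, and for the 29 target genes 0.04 with 19 above 0. At an unadjusted p under 0.05 they held 1, 1 and 2 genes, all higher, where 4.66% of all genes were counted as higher. The smallest p in each list belonged to MLST8, an mTOR complex subunit (log2 fold change 0.43 ± 0.14, edgeR adjusted p = 0.391), YWHAG, a 14-3-3 protein of the kind that holds phosphorylated TFEB in the cytoplasm (0.30 ± 0.09, adjusted p = 0.367), and SQSTM1, the autophagy receptor p62 (0.70 ± 0.29, adjusted p = 0.488). For TRPML3 averaged over serum states the 3 medians were -0.03, -0.02 and 0.06, against -0.01 over all genes.

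Without replicate 3 the medians for average starvation were 0.39 (18 of 22 above 0), 0.01 (8 of 16) and 0.11 (18 of 29). Over all genes the median was -0.02 (8760 of 18052 above 0). In that fit, 4 of the 67 genes passed for starvation averaged over plasmids (3 higher and 1 lower), where 4.49% of all genes did (2.54% higher and 1.94% lower). MTOR, the kinase of mTORC1, rose by a log2 fold change of 0.89 ± 0.16 (edgeR adjusted p = 0.0439). SQSTM1 rose by 1.28 ± 0.23 (edgeR adjusted p = 0.0439) and YWHAG by 0.43 ± 0.08 (edgeR adjusted p = 0.0403). The identifier of the SQSTM1 row, ENSG00000284099, has no position in the primary assembly annotation of GENCODE release 29. Which reads that row holds was not checked. GABARAPL1, which encodes an ATG8 protein of autophagosomes, fell by 1.04 ± 0.11 on the log2 scale (adjusted p = 0.0248). For MTOR, SQSTM1 and GABARAPL1, replicate 3 went the other way in at least 1 plasmid. MTOR had 202 and 196 CPM in vector and TRPML3 fed replicate 3 and 158 and 147 CPM in the starved ones. RRAGC had a log2 fold change of 0.38 ± 0.12 without replicate 3 (adjusted p = 0.12) and 0.25 ± 0.11 with it (adjusted p = 0.544), beside the -0.99 and -0.49 of RRAGD.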

How the data were processed

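PolyA RNA-seq libraries of HEK293T cells were compared in 4 groups of 3, taken from the sample titles. The authors deposited raw counts per gene row, which were tested as deposited. A table of normalized values was not used. The submitters' processing notes name FastQC, fastp, HISAT2, StringTie, DESeq2 and the build GRCh38, without versions or roles, so the counts may be rounded estimates. Annotation release, strand use and the treatment of shared reads are not given in the sources used here. No row lacked a gene name.

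Here, edgeR 4.0.16 in R 4.3.3 was fitted to all 12 libraries and 18030 genes (filterByExpr, TMM, robust quasi-likelihood, 1 coefficient per group, 8 residual degrees of freedom), with calls at a Benjamini-Hochberg adjusted p under 0.05. Standard errors came from the log2 fold change and its F, and intervals are 95%. The pipeline was tested on simulated data whose spread between libraries was set well below that of these data. That run therefore does not show what was detectable here. Exon lengths and positions came from GENCODE release 29 (GRCh38). Alternatives were DESeq2 1.42.0, its size factors, library size only, no filter, the replicate number as a block, and each library or replicate number left out.

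The genes, the lists and the alternatives were chosen with earlier results of these data known. The rule named all 9 genes, MCOLN3, in each pathway list any gene called or otherwise those of smallest p for average starvation, and the 2 genes most like each detected gene, of which 1 is not reported here. RRAGC and MPRIP were named after their values were seen. Deviations from group means were correlated between the plasmids by replicate number. In fed libraries r was 0.11, 0.15 and 0.33 for replicates 1, 2 and 3, and in starved libraries 0.13, 0.095 and 0.32. Between fed and starved libraries of the same plasmid r ran from -0.076 to 0.0075. The main fit held no term for the replicate number, which was used as a block in an alternative. That block gave fed and starved libraries of a number the same effect, although their deviations hardly correlated. A separate block for each serum state was not used.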

Additional observations from a re-analysis of the deposited data

How the results depend on the processing

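In none of 20 alternatives did any of the 56 fold changes of the 8 tested genes (7 contrasts each) pass an adjusted p under 0.05, with edgeR or DESeq2. Of the 1120 values, 109 had the opposite sign, 100 of them where a library or a replicate number was left out, and 24 fold changes kept their sign in every alternative. The wide intervals limit what was detectable. Counts of TFEB and GPNMB were low, but their SEs were not the largest. For average starvation these were 0.25 and 0.30, below those of FLCN (0.31), RRAGD (0.36), MITF (0.43) and FNIP2 (0.93). They were above those of TFE3 (0.16) and FNIP1 (0.13). Fits with 2 libraries in a group assume that it varies like the others. The cause of the sign changes was not tested.

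On the log2 scale, scaling by library size only gave TFEB -0.051 for TRPML3 in fed cells and -0.0087 for starvation in TRPML3 cells, FNIP1 -0.070 for TRPML3 in starved cells, MITF -0.023 for the interaction, and RRAGD -0.048 and GPNMB -0.056 for average TRPML3. The replicate block gave TFEB -0.0034 for TRPML3 in fed cells, MITF -0.19 for the interaction and GPNMB -0.020 for average TRPML3, and it changed no call.

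Ranges that held both signs with a library or replicate number left out were as follows. For average TRPML3 they were FLCN -0.074 to 0.30, GPNMB -0.11 to 0.23, MITF -0.017 to 0.50, RRAGD -0.31 to 0.33, TFE3 -0.11 to 0.15 and TFEB -0.21 to 0.10. For starvation in vector cells they were FLCN -0.14 to 0.50, RRAGD -0.83 to 0.27, TFE3 -0.023 to 0.47 and TFEB -0.16 to 0.53. For average starvation they were FNIP1 -0.024 to 0.24, FNIP2 -0.71 to 1.43, GPNMB -0.22 to 0.20, RRAGD -0.99 to 0.12 and TFEB -0.23 to 0.41. For starvation in TRPML3 cells they were FNIP1 -0.22 to 0.11, FNIP2 -0.50 to 3.29, GPNMB -0.061 to 0.61 and TFEB -0.31 to 0.32. For TRPML3 in starved cells they were FNIP1 -0.049 to 0.10, FNIP2 -0.85 to 0.35, MITF -0.27 to 0.89, RRAGD -0.51 to 0.28 and TFEB -0.46 to 0.18. For the interaction they were MITF -0.58 to 0.91, RRAGD -0.68 to 0.27, TFE3 -0.073 to 0.42 and TFEB -0.49 to 0.16. For TRPML3 in fed cells they were MITF -0.017 to 0.53, RRAGD -0.29 to 0.67, TFE3 -0.31 to 0.18 and TFEB -0.080 to 0.22.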
